A study of Mus musculus with 24 samples.

Results

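p53 is a transcription factor that cells stabilise after DNA damage and other stress, and 35 genes of its pathway were followed here across every group of a study of the Mediator kinases CDK8 and CDK19 in mouse intestinal organoids. The list holds p53 itself, its inhibitors Mdm2 and Mdm4, and genes reported as p53 targets, and each symbol was matched to 1 of the 54146 Ensembl genes of the count tables. All 35 were found. The study asked which roles CDK8 and CDK19 share, which are specific to each, and whether losing both is lethal. Its RNA sequencing of organoids measured how their loss changes gene expression.

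The first experiment compared 4 genotypes with 3 libraries each: WT, Cdk8-/-, Cdk19-/- and the double knockout Cdk8-/-/Cdk19-/-, all exposed to 600 nM 4-hydroxytamoxifen for 7 days. Organoids able to lose Cdk8 carried floxed Cdk8 alleles and CreERT2 driven by the Villin promoter, which is active in intestinal epithelium, and Cre removed exon 2 of Cdk8. Cdk19 was edited in exon 1 with a lentiviral Cas9 vector under puromycin selection, and single organoids were picked and expanded, so that a library edited in Cdk19 may stand for 1 clone; which clone each library came from is not given in the sources used here. The second experiment treated WT organoids with Senexin B, an inhibitor of CDK8 and CDK19, at 10 μM, or with its vehicle DMSO, for 16 h or 24 h, again with 3 libraries per group. The shared protocol text gives the same 7 days of 4-hydroxytamoxifen at 600 nM for these samples too. The labels call the libraries biological triplicates without saying whether they came from separate cultures or animals, so the p-values measure the spread between these libraries, which may be technical.

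In unstressed cells MDM2 binds p53 and marks it for destruction, and MDM4 (MDMX) holds back its activity. Once released, p53 binds pairs of half-sites near its target genes, which halt the cell cycle through p21 (Cdkn1a), drive apoptosis through the BCL-2 family, repair DNA, or raise MDM2 again in a negative feedback loop. In the intestinal crypt this pathway is best known for the death of stem and progenitor cells after irradiation. Most control of p53 acts on the protein, which RNA counts do not show.

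The promoters were searched for the p53 response element, 2 copies of the 10-letter p53 half-site with 0 to 13 bases between them. In the centre of its consensus a C and a G enclose 2 bases that are each A or T. That C and G had to match, and mismatches were counted over the other letters. The consensus is a palindrome, so that 1 search covers both strands. RefSeq promoters on GRCm38.p6, from 250 bases before the start to 50 after it, were given for 27 of the 35 genes, as 41 promoters, and not for 8 of them: Trp53inp1, Pmaip1, Zmat3, Perp, Tnfrsf10b, Rrm2b, Xpc and Ddb2. The promoters with at most 2 mismatches over both half-sites were Cdkn1a (0 mismatches), Ccng1 and Gtse1 (1 each) and Sesn1, Bax and Ckap2 (2 each), a cutoff chosen after the mismatches had been counted. They make up 14.6% of the 41 promoters, beside 4.09% of all 32851 RefSeq promoters; with at most 1 mismatch the shares were 7.32% and 0.627%. Cdkn1a, Gtse1 and Sesn1 each had a second promoter, with 5 mismatches. In Cdkn1a the pair with fewest mismatches spans a gap of 12 bases. Its second half-site is followed directly by a further half-site with 1 mismatch, which is not marked. A match describes letters and does not show that p53 binds there, and a window without one says nothing of p53 at these genes. The 250 bases before the start of 3 of these genes are shown because Cdkn1a and Ccng1 are used throughout as readouts of p53 and Bax moved in both experiments; capitals mark the half-sites, and each runs 5′ to 3′ on the strand of its gene.
Cdkn1a, chr17:29090729-29090978, + strand: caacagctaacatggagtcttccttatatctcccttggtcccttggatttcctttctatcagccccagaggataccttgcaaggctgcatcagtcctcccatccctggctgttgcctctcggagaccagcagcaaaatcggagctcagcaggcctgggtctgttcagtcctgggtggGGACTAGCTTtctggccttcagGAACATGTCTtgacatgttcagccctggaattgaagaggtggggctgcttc
Ccng1, chr11:40755287-40755536, - strand: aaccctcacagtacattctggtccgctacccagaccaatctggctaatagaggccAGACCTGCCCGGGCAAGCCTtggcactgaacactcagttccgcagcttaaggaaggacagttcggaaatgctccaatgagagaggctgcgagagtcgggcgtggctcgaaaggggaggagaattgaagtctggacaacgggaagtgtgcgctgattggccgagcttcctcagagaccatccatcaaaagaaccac
Bax, chr7:45466899-45467148, - strand: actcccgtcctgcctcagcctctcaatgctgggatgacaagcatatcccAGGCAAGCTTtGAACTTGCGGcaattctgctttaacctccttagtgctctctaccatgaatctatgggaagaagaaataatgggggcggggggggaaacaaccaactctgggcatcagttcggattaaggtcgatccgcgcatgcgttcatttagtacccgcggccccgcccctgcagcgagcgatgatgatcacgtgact
For the other 3 only the element itself is shown, for comparison with those above.
Gtse1 site, chr15:85859945-85859964, + strand: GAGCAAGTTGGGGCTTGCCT
Sesn1 site, chr10:41887253-41887275, + strand: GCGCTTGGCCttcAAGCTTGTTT
Ckap2 site, chr8:22186003-22186022, - strand: AGACATGTCCTGACTTGTCA

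The genotype libraries held 14636861 to 15473180 counts on genes and the Senexin B libraries 27075937 to 28405118. In the genotype libraries 49.6% to 49.8% of the strand-resolved reads fell in the column used, against 91.0% to 94.0% in the Senexin B libraries, so the first set carries no strand information and Ddb2, Rrm2b and Ei24, whose exons overlap a gene on the other strand, share reads with it there. Bax overlaps Gm45808 on its own strand in both sets. The genotype labels name 4T1, a mammary carcinoma line, as the cell type, yet 9 intestinal epithelial markers summed to 6240.1 to 8593 CPM (counts scaled to library size) in those libraries and 4 of 5 mammary markers stayed under 10 counts in each of them, so the text keeps to organoids. The fifth, Krt5, held 4 to 13 counts in Cdk8-/- and 3 to 11 in the double knockout, and 0 in WT and Cdk19-/-. Immune markers summed to 2.52 to 5.23 CPM and stromal markers to 0.0646 to 0.677 CPM in the genotype libraries. The 4 endothelial markers summed to 1.16 to 3.003 CPM in WT, 2.87 to 6.47 in Cdk8-/-, 1.23 to 2.301 in Cdk19-/- and 3.49 to 7.16 in the double knockout, nearly all of it from Pecam1 and Tek, with Cdh5 and Kdr at 0 to 2 counts in every library. The intestinal sum itself differed between groups, at 6240.1 to 6489 CPM in WT, 7751 to 8377 in Cdk8-/-, 6879.8 to 8437 in Cdk19-/- and 7637 to 8593 in the double knockout, and at 24 h 5726 to 6089 with DMSO against 4811 to 5143 with Senexin B. The part of these marker genes in the results was not tested.

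The label checks concern every genotype comparison. Cdk8 counts do not test the deletion, since the gene total includes the exons that remain: they were 635, 646 and 534 in WT and 685, 857 and 634 in Cdk8-/-. Esr1, whose ligand-binding part is contained in CreERT2, reached 286 to 312 normalised counts in Cdk8-/- and 298 to 393 in the double knockout against 1.01 to 6.26 in WT, so loss of Cdk8 and presence of CreERT2 cannot be told apart. Cdk19 stood at 711, 749 and 726 in WT, 702, 646 and 582 in Cdk8-/-, 729, 420.1 and 422 in Cdk19-/- and 403, 355 and 773 in the double knockout. The library labelled Cdk19-/- replicate 1 and the library labelled double-knockout replicate 3 therefore lay at the WT level of Cdk19 RNA. Over all genes, by a chi-square of the counts, the first of these was nearer to WT replicate 1 (16.2 per gene) than to its own group (25.9 and 27.4), and double-knockout replicates 2 and 3 were each nearest to Cdk8-/- replicate 3 (11.7 and 15.9), which was nearer to them than to its own group (17.5 and 39.2). Calls on the 35 genes that change without these 2 libraries are given both ways.

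The pathway genes were expressed over a wide range in WT organoids. Per kilobase of exon, Perp, a p53 and p63 target of cell junctions, was the most abundant in WT at 1506 normalised counts per kb, followed by Trp53 at 932 and Ccng1 at 889. Ak1 (8.04), Rrm2b (8.57) and Ddit4l (12.1) were the least abundant on that scale. With DMSO at 24 h the top 3 were Perp, Cdkn1a and Trp53, at 2810.1, 1374 and 1340.5 normalised counts per kb. Levels were scaled within each experiment, and the experiments differ in depth and library type, so a level in one is not compared with a level in the other. Normalised counts below are read counts scaled to the mean library size of the 12 libraries of an experiment. RNA from whole organoids was measured, so fewer cells of a type and less RNA per cell cannot be told apart.

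Many p53 targets were higher in organoids without Cdk8, with or without Cdk19. In Cdk8-/- organoids 16 of the 35 genes were higher than in WT and 1, Ddb2, was lower at an edgeR adjusted p under 0.05, where 2.79% of the 15602 genes tested were called higher and 2.36% lower. In the double knockout 22 were higher and 1 lower, against a background of 9.41% higher and 7.9% lower. In Cdk19-/- organoids none of the 35 passed, as was true of all genes tested (0%). The median log2 fold change of the 35 genes was 0.58 in Cdk8-/-, -0.032 in Cdk19-/- and 0.71 in the double knockout, beside 0.01, -0.017 and -0.009 over all genes. All 3 double-knockout libraries lay above all 3 WT libraries for 25 of the 35, against 18.7% of all genes. Both comparisons use the same WT libraries. Without WT replicate 1 the count of increases and decreases in Cdk8-/- was 11, with 196 calls over all genes in place of 804, without Cdk8-/- replicate 3 it was 12, with 417, and without both libraries at the WT level of Cdk19 the count in the double knockout was 25, with Eda2r and Xpc added, and 3008 over all genes in place of 2700.

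**Figure D1:**
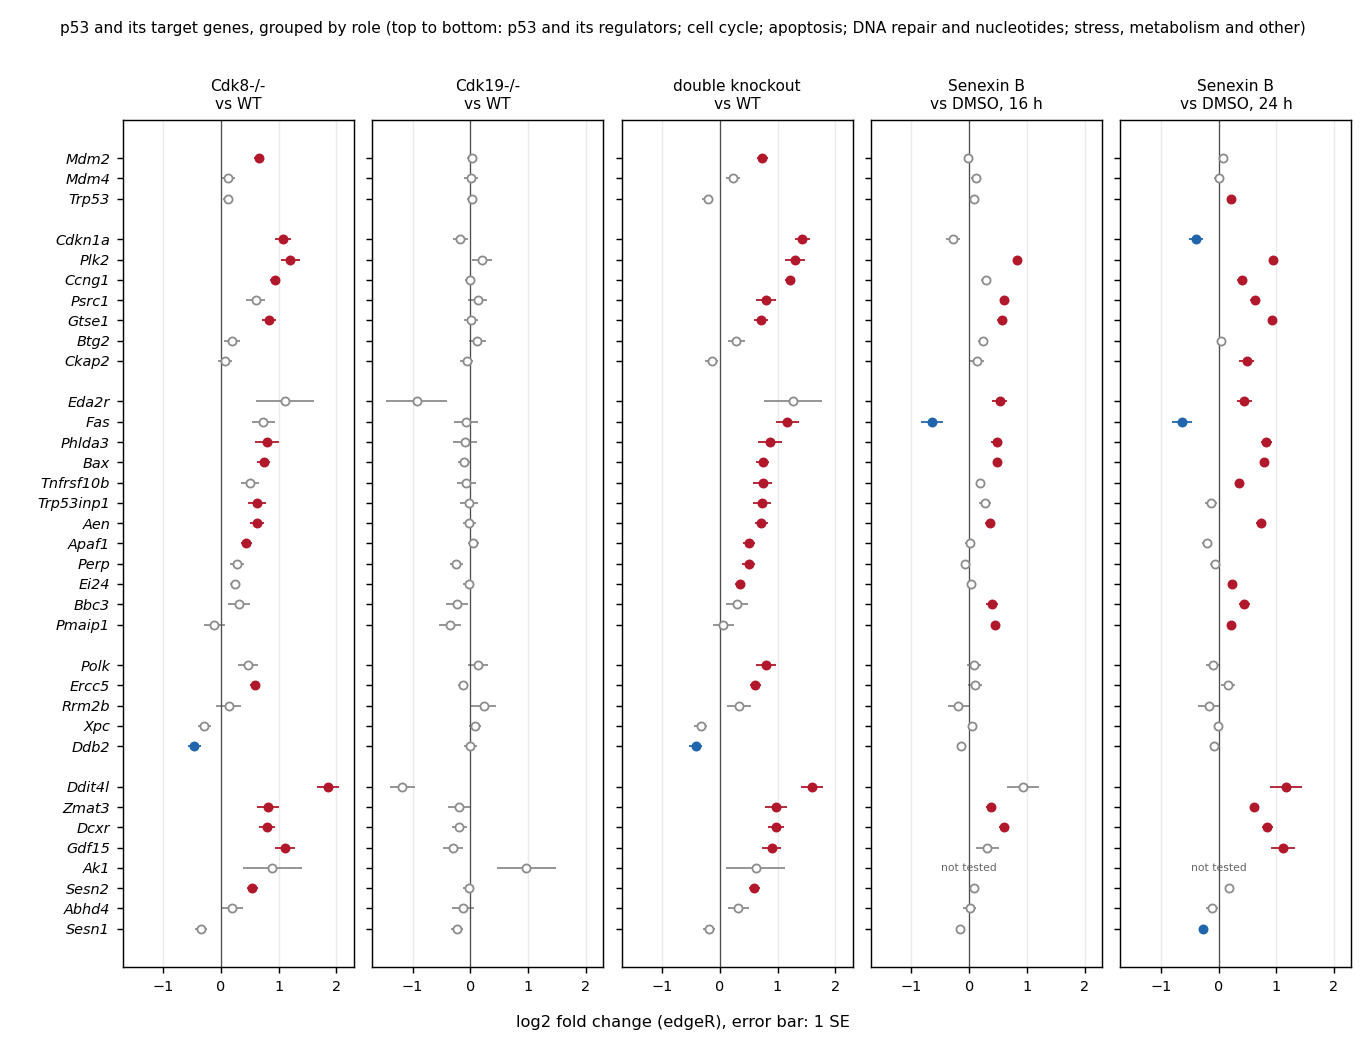
Log2 fold change of each of the 35 p53 pathway genes in the comparisons with WT or DMSO, with its standard error. Genes called at an edgeR adjusted p under 0.05 are marked, and most called values in Cdk8-/- and in the double knockout lie to the right of 0.

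Among p53 and its 2 inhibitors, only Mdm2 passed the test in the knockouts. Trp53 (chr11:69580359-69591873 on GRCm38, + strand) encodes p53. Trp53 stood at 3693, 3692 and 3923 normalised counts in WT, 4509, 4027 and 3773 in Cdk8-/-, 4095, 3685 and 3714 in Cdk19-/- and 2995, 3411 and 3373 in double-knockout organoids. The 3 double-knockout libraries were the lowest of the 12, below every WT library. For Trp53, its log2 fold change against WT was 0.12 ± 0.09 (edgeR adjusted p = 0.472) in Cdk8-/- and -0.21 ± 0.09 (edgeR adjusted p = 0.129) in the double knockout. Mdm2 encodes the ubiquitin ligase that degrades p53 and is itself a p53 target. Mdm2 stood at 699, 741 and 715 normalised counts in WT, 1033, 1125 and 1246 in Cdk8-/-, 661, 778 and 757 in Cdk19-/- and 1125, 1224 and 1249 in double-knockout organoids. Its Cdk8-/- and double-knockout libraries were all above its WT and Cdk19-/- libraries. For Mdm2, its log2 fold change against WT was 0.66 ± 0.093 (edgeR adjusted p = 0.00263) in Cdk8-/- and 0.74 ± 0.093 (edgeR adjusted p = 0.000645) in the double knockout. Mdm4 encodes the related inhibitor without ligase activity of its own. Mdm4 stood at 1338, 1257 and 1254 normalised counts in WT, 1209, 1514 and 1467 in Cdk8-/-, 1179.8, 1300.0 and 1407 in Cdk19-/- and 1357, 1357 and 1783 in double-knockout organoids. WT and Cdk8-/- overlapped, and the double knockout lay just above WT. For Mdm4, its log2 fold change against WT was 0.12 ± 0.12 (edgeR adjusted p = 0.616) in Cdk8-/- and 0.22 ± 0.12 (edgeR adjusted p = 0.228) in the double knockout.

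Of 7 genes that restrain or guide the cell cycle, 4 were higher in Cdk8-/- and 5 in the double knockout. Cdkn1a encodes p21, the cyclin-dependent kinase inhibitor through which p53 halts the cycle. Cdkn1a stood at 2061, 2275 and 1733 normalised counts in WT, 4162, 3816 and 4794 in Cdk8-/-, 2059, 1524 and 1801 in Cdk19-/- and 5510.4, 5709 and 5140.1 in double-knockout organoids. Cdk8-/- libraries lay above every WT library, and double-knockout libraries above every Cdk8-/- library, with Cdk19-/- within the WT range but for 1 library below it. For Cdkn1a, its log2 fold change against WT was 1.07 ± 0.13 (edgeR adjusted p = 0.00107) in Cdk8-/- and 1.43 ± 0.13 (edgeR adjusted p = 0.000115) in the double knockout. Ccng1 encodes cyclin G1, which recruits a phosphatase to MDM2. Ccng1 stood at 3095, 3082 and 3190.2 normalised counts in WT, 5477, 6014 and 6333 in Cdk8-/-, 2968, 3252 and 3067 in Cdk19-/- and 6733, 7674 and 7399.9 in double-knockout organoids. It followed the same order of groups as Cdkn1a, with little spread within any of them. For Ccng1, its log2 fold change against WT was 0.93 ± 0.084 (edgeR adjusted p = 0.000141) in Cdk8-/- and 1.22 ± 0.085 (edgeR adjusted p = 8.95e-06) in the double knockout. Plk2 encodes a polo-like kinase of centriole duplication. Plk2 stood at 305, 369 and 372 normalised counts in WT, 819.9, 665 and 919 in Cdk8-/-, 434, 410.3 and 355 in Cdk19-/- and 654, 1025 and 895 in double-knockout organoids. Cdk8-/- and double-knockout libraries were well above WT and overlapped each other. For Plk2, its log2 fold change against WT was 1.20 ± 0.17 (edgeR adjusted p = 0.00263) in Cdk8-/- and 1.30 ± 0.17 (edgeR adjusted p = 0.000809) in the double knockout.

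Gtse1, a microtubule protein that shuttles p53 out of the nucleus, also rose. Gtse1 stood at 697, 715 and 624 normalised counts in WT, 1288, 1196 and 1132 in Cdk8-/-, 757, 627 and 679 in Cdk19-/- and 1094, 1301 and 936 in double-knockout organoids. Here double-knockout libraries lay partly below the Cdk8-/- libraries, but all were above WT. For Gtse1, its log2 fold change against WT was 0.83 ± 0.12 (edgeR adjusted p = 0.00305) in Cdk8-/- and 0.71 ± 0.12 (edgeR adjusted p = 0.00271) in the double knockout. Psrc1, a spindle protein, passed the test in the double knockout only, and the difference between the knockouts was not called either. Psrc1 ranged from 363 to 544 normalised counts in WT, 632 to 752 in Cdk8-/-, 462 to 537 in Cdk19-/- and 628 to 963 in double-knockout organoids. For Psrc1, its log2 fold change against WT was 0.60 ± 0.17 (edgeR adjusted p = 0.0588) in Cdk8-/- and 0.80 ± 0.17 (edgeR adjusted p = 0.00723) in the double knockout. Btg2, an antiproliferative cofactor of mRNA deadenylation, passed in neither. Btg2 ranged from 1572 to 1975 normalised counts in WT, 1803 to 2068 in Cdk8-/-, 1788 to 2039 in Cdk19-/- and 1615 to 2435 in double-knockout organoids. For Btg2, the log2 fold change was 0.19 in Cdk8-/- and 0.29 in the double knockout. Ckap2, a protein of the mitotic spindle, did not pass either. Ckap2 ranged from 666 to 815 normalised counts in WT, 670.3 to 868 in Cdk8-/-, 662 to 771 in Cdk19-/- and 651 to 743 in double-knockout organoids. For Ckap2, the corresponding values were 0.07 and -0.14.

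**Figure D2:**
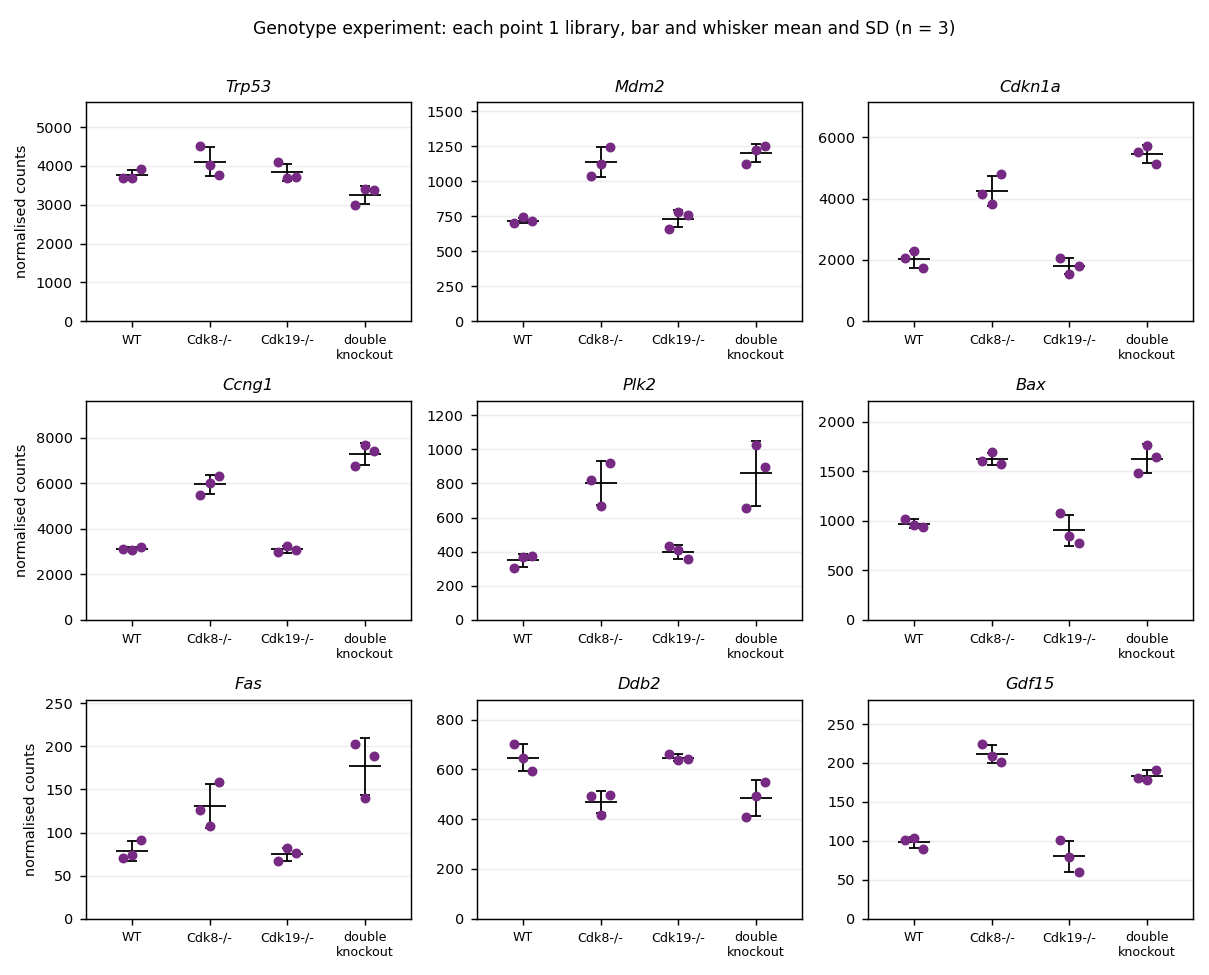
Normalised counts (y axis, from 0) of 9 of the genes in the 4 genotypes, each point 1 library, with the mean and SD of the 3. Cdkn1a, Ccng1, Plk2, Bax and Gdf15 lie above WT in every Cdk8-/- and double-knockout library, and Trp53 is lowest in the double knockout.

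Of the 12 genes of cell death, 5 were higher in Cdk8-/- and 9 in the double knockout. Bax encodes the BCL-2 family protein that permeabilises mitochondria. Bax stood at 1019, 955 and 937 normalised counts in WT, 1603, 1690.1 and 1571 in Cdk8-/-, 1082, 846 and 781 in Cdk19-/- and 1478, 1765 and 1642 in double-knockout organoids. The Cdk8-/- and double-knockout libraries overlapped each other and all lay above WT. For Bax, its log2 fold change against WT was 0.74 ± 0.11 (edgeR adjusted p = 0.00439) in Cdk8-/- and 0.75 ± 0.11 (edgeR adjusted p = 0.00163) in the double knockout. The BH3-only genes Bbc3 (PUMA) and Pmaip1 (NOXA) passed neither in Cdk8-/- nor in the double knockout. Bbc3 ranged from 327 to 374 normalised counts in WT, 373 to 494 in Cdk8-/-, 228 to 385 in Cdk19-/- and 345 to 492 in double-knockout organoids. Pmaip1 ranged from 770.4 to 897 normalised counts in WT, 607 to 855 in Cdk8-/-, 634 to 651 in Cdk19-/- and 587 to 1051 in double-knockout organoids. For Bbc3, the log2 fold change was 0.31 in Cdk8-/- and 0.29 in the double knockout. For Pmaip1, it was -0.11 and 0.062, with the double-knockout libraries on both sides of WT.

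The death receptors Fas, Tnfrsf10b and Eda2r lay above WT in every Cdk8-/- and double-knockout library, and Fas and Tnfrsf10b were called in the double knockout. Fas encodes the receptor for FAS ligand. Fas stood at 70.4, 73.9 and 91.9 normalised counts in WT, 126, 108 and 158 in Cdk8-/-, 66.5, 81.7 and 76 in Cdk19-/- and 203, 139.8 and 188 in double-knockout organoids. Cdk8-/- libraries were above WT, and 2 of the 3 double-knockout libraries were above Cdk8-/-. For Fas, its log2 fold change against WT was 0.73 ± 0.20 (edgeR adjusted p = 0.0533) in Cdk8-/- and 1.17 ± 0.20 (edgeR adjusted p = 0.00255) in the double knockout. Tnfrsf10b, the TRAIL receptor, rose in the double knockout. Tnfrsf10b ranged from 303 to 319 normalised counts in WT, 343 to 498 in Cdk8-/-, 255 to 357 in Cdk19-/- and 447 to 556 in double-knockout organoids. For Tnfrsf10b, its log2 fold change against WT was 0.50 ± 0.16 (edgeR adjusted p = 0.0956) in Cdk8-/- and 0.74 ± 0.16 (edgeR adjusted p = 0.00875) in the double knockout. Eda2r, the receptor for ectodysplasin A2, was higher in every library of both knockouts than in every WT library, without a call. Eda2r stood at 242, 256 and 217 normalised counts in WT, 496, 487 and 559 in Cdk8-/-, 289, 39.9 and 47.4 in Cdk19-/- and 475, 655 and 586 in double-knockout organoids. For Eda2r, its log2 fold change against WT was 1.11 ± 0.50 (edgeR adjusted p = 0.228) in Cdk8-/- and 1.26 ± 0.50 (edgeR adjusted p = 0.105) in the double knockout. Without both libraries at the WT level of Cdk19, the double-knockout value was 1.24 (edgeR adjusted p = 0.000863).

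Of the remaining genes of cell death, 4 were called in both knockouts and 2 in the double knockout alone. Apaf1, the scaffold of the apoptosome, was called in both knockouts. Apaf1 ranged from 598 to 651 normalised counts in WT, 785 to 903 in Cdk8-/-, 596 to 684 in Cdk19-/- and 795 to 1006 in double-knockout organoids. For Apaf1, its log2 fold change against WT was 0.44 ± 0.10 (edgeR adjusted p = 0.0298) in Cdk8-/- and 0.50 ± 0.10 (edgeR adjusted p = 0.00664) in the double knockout. Aen encodes a nuclease induced by p53. Aen ranged from 367 to 415 normalised counts in WT, 575 to 605 in Cdk8-/-, 324 to 441 in Cdk19-/- and 585 to 713 in double-knockout organoids. For Aen, its log2 fold change against WT was 0.62 ± 0.12 (edgeR adjusted p = 0.0123) in Cdk8-/- and 0.72 ± 0.12 (edgeR adjusted p = 0.00212) in the double knockout. Phlda3, which restrains AKT at the membrane, rose in both. Phlda3 stood at 423, 447 and 346 normalised counts in WT, 782, 612 and 715 in Cdk8-/-, 523, 322 and 298 in Cdk19-/- and 601, 881 and 747 in double-knockout organoids. One Cdk19-/- library lay above WT and the other 2 below it. For Phlda3, its log2 fold change against WT was 0.79 ± 0.21 (edgeR adjusted p = 0.0466) in Cdk8-/- and 0.87 ± 0.21 (edgeR adjusted p = 0.0137) in the double knockout.

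Trp53inp1, which promotes p53 activity on death genes and autophagy, was called in both knockouts. Trp53inp1 ranged from 524 to 749.5 normalised counts in WT, 877 to 1075 in Cdk8-/-, 556 to 695 in Cdk19-/- and 846 to 1195 in double-knockout organoids. For Trp53inp1, its log2 fold change against WT was 0.63 ± 0.16 (edgeR adjusted p = 0.0395) in Cdk8-/- and 0.73 ± 0.16 (edgeR adjusted p = 0.00819) in the double knockout. Perp passed only in the double knockout. Perp stood at 2894, 2847 and 3077 normalised counts in WT, 3340.2, 3206 and 4139.8 in Cdk8-/-, 2902, 2254 and 2287 in Cdk19-/- and 4088, 4265 and 4131 in double-knockout organoids. Every Cdk8-/- and double-knockout library lay above every WT library, and 1 Cdk8-/- library reached the double-knockout range. For Perp, its log2 fold change against WT was 0.28 ± 0.12 (edgeR adjusted p = 0.19) in Cdk8-/- and 0.50 ± 0.12 (edgeR adjusted p = 0.0126) in the double knockout. Ei24, an endoplasmic reticulum protein linked to autophagy, did likewise. Ei24 ranged from 2755 to 2903 normalised counts in WT, 3222 to 3559 in Cdk8-/-, 2530.1 to 3071 in Cdk19-/- and 3402 to 3821 in double-knockout organoids. For Ei24, its log2 fold change against WT was 0.25 ± 0.089 (edgeR adjusted p = 0.131) in Cdk8-/- and 0.36 ± 0.089 (edgeR adjusted p = 0.0178) in the double knockout. In Cdk8-/- the calls on Trp53inp1, Phlda3 and Apaf1 were lost without any 1 of 4 or 5 of the 6 libraries compared, and that on Aen without WT replicate 1 (0.58, edgeR adjusted p = 0.0711). In the double knockout Perp lost its call without WT replicate 1 (0.49, edgeR adjusted p = 0.053) or 2, Phlda3 without double-knockout replicate 2 (0.73, edgeR adjusted p = 0.0516), and Ei24 without WT replicate 1 (0.35, edgeR adjusted p = 0.0695), WT replicate 2 or double-knockout replicate 2.

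The 5 genes of DNA repair and nucleotide supply split in direction, with 2 higher and 1 lower in the double knockout. Ercc5 encodes the XPG nuclease of nucleotide excision repair. Ercc5 stood at 295, 311 and 310.0 normalised counts in WT, 415, 477 and 479 in Cdk8-/-, 275, 274 and 290.2 in Cdk19-/- and 451, 469.7 and 485 in double-knockout organoids. All Cdk8-/- and double-knockout libraries lay above all WT and Cdk19-/- libraries. For Ercc5, its log2 fold change against WT was 0.58 ± 0.088 (edgeR adjusted p = 0.00411) in Cdk8-/- and 0.62 ± 0.088 (edgeR adjusted p = 0.00125) in the double knockout. Polk encodes a translesion DNA polymerase. Polk ranged from 203 to 291 normalised counts in WT, 313 to 357 in Cdk8-/-, 213 to 300.5 in Cdk19-/- and 358 to 493 in double-knockout organoids. For Polk, its log2 fold change against WT was 0.46 ± 0.17 (edgeR adjusted p = 0.138) in Cdk8-/- and 0.80 ± 0.17 (edgeR adjusted p = 0.00819) in the double knockout. Ddb2 encodes the damage sensor of UV lesions and was the 1 gene of the list called lower. Ddb2 stood at 703, 646 and 593 normalised counts in WT, 494, 418 and 496 in Cdk8-/-, 663, 637 and 641 in Cdk19-/- and 407, 494 and 551 in double-knockout organoids. Its Cdk8-/- and double-knockout libraries were below every WT library. For Ddb2, its log2 fold change against WT was -0.46 ± 0.12 (edgeR adjusted p = 0.0425) in Cdk8-/- and -0.42 ± 0.12 (edgeR adjusted p = 0.0283) in the double knockout.

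The call on Ddb2 was lost in Cdk8-/- without any 1 of the 6 libraries, and in the double knockout without WT replicate 1 (-0.36, edgeR adjusted p = 0.114), WT replicate 2 or double-knockout replicate 1 or 2. Xpc, its partner in lesion recognition, had lower values without a call. Xpc stood at 536, 565 and 544 normalised counts in WT, 503, 416 and 427 in Cdk8-/-, 582, 584 and 576 in Cdk19-/- and 377, 428 and 501 in double-knockout organoids. For Xpc, its log2 fold change against WT was -0.29 ± 0.11 (edgeR adjusted p = 0.147) in Cdk8-/- and -0.33 ± 0.11 (edgeR adjusted p = 0.0537) in the double knockout. Without both libraries at the WT level of Cdk19, the double-knockout value of Xpc passed at -0.45 (edgeR adjusted p = 0.0155). Rrm2b, the p53-inducible subunit of ribonucleotide reductase, was scarce. Rrm2b ranged from 77.2 to 79.1 normalised counts in WT, 65.5 to 110.4 in Cdk8-/-, 80 to 107 in Cdk19-/- and 84.7 to 121 in double-knockout organoids. For Rrm2b, the log2 fold change was 0.13 in Cdk8-/- and 0.33 in the double knockout, neither of them called.

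Of the 8 genes of stress response and metabolism, 5 were higher in Cdk8-/- and 5 in the double knockout. Ddit4l, an inhibitor of mTORC1, had the largest called fold change against WT of the 35 genes in both. Ddit4l stood at 38.2, 39 and 28.2 normalised counts in WT, 124, 116 and 141 in Cdk8-/-, 16.1, 17.5 and 12.8 in Cdk19-/- and 110.2, 117 and 94.2 in double-knockout organoids. No library of Cdk8-/- or the double knockout came near WT, and the Cdk19-/- libraries were all below it. For Ddit4l, its log2 fold change against WT was 1.85 ± 0.19 (edgeR adjusted p = 0.000345) in Cdk8-/- and 1.60 ± 0.19 (edgeR adjusted p = 0.000512) in the double knockout. Gdf15 encodes a secreted stress cytokine. Gdf15 stood at 101, 104 and 89.8 normalised counts in WT, 225, 209 and 202 in Cdk8-/-, 101, 78.8 and 60.2 in Cdk19-/- and 181, 178 and 191 in double-knockout organoids. Both knockouts lay above WT, with the double knockout below Cdk8-/-. For Gdf15, its log2 fold change against WT was 1.11 ± 0.17 (edgeR adjusted p = 0.00362) in Cdk8-/- and 0.90 ± 0.17 (edgeR adjusted p = 0.00406) in the double knockout. Dcxr, a reductase of xylulose, rose in both. Dcxr ranged from 312 to 360.2 normalised counts in WT, 535 to 635 in Cdk8-/-, 267 to 328 in Cdk19-/- and 538 to 757 in double-knockout organoids. For Dcxr, its log2 fold change against WT was 0.80 ± 0.14 (edgeR adjusted p = 0.00764) in Cdk8-/- and 0.97 ± 0.14 (edgeR adjusted p = 0.00117) in the double knockout. Zmat3, a zinc finger protein that binds RNA, rose in both. Zmat3 stood at 572, 591 and 501 normalised counts in WT, 933, 968 and 1021 in Cdk8-/-, 679, 376 and 397 in Cdk19-/- and 1022, 1234 and 1013 in double-knockout organoids. Every Cdk8-/- and double-knockout library lay above every WT library, and 1 Cdk19-/- library exceeded WT and 2 fell short of it. For Zmat3, its log2 fold change against WT was 0.81 ± 0.19 (edgeR adjusted p = 0.0281) in Cdk8-/- and 0.97 ± 0.19 (edgeR adjusted p = 0.00489) in the double knockout. In Cdk8-/- its call was lost without any 1 of the 6 libraries compared (0.74 to 0.85).

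The sestrins, which limit mTORC1 when amino acids are short, differed in their calls. Sesn2 stood at 632, 580.3 and 548 normalised counts in WT, 835, 824 and 899.8 in Cdk8-/-, 654, 543 and 525 in Cdk19-/- and 891, 914 and 864 in double-knockout organoids. Sesn2 was higher in every library of both knockouts. For Sesn2, its log2 fold change against WT was 0.54 ± 0.10 (edgeR adjusted p = 0.00933) in Cdk8-/- and 0.60 ± 0.10 (edgeR adjusted p = 0.00201) in the double knockout. Sesn1 stood at 750.3, 754 and 829 normalised counts in WT, 607, 620.1 and 608 in Cdk8-/-, 730.4, 629 and 619.9 in Cdk19-/- and 755, 589.8 and 704 in double-knockout organoids. Sesn1 lay below every WT library in Cdk8-/- and overlapped WT in the double knockout. For Sesn1, its log2 fold change against WT was -0.35 ± 0.10 (edgeR adjusted p = 0.0759) in Cdk8-/- and -0.19 ± 0.10 (edgeR adjusted p = 0.23) in the double knockout. Abhd4, a lipid hydrolase, varied widely within Cdk8-/- and the double knockout. Abhd4 ranged from 1455 to 1542 normalised counts in WT, 1221 to 2122 in Cdk8-/-, 1343 to 1379 in Cdk19-/- and 1397 to 2246 in double-knockout organoids. For Abhd4, the log2 fold change was 0.20 in Cdk8-/- and 0.32 in the double knockout, without a call. Ak1, an adenylate kinase, had few counts. Ak1 stood at 19.1, 23.6 and 19.8 normalised counts in WT, 41.3, 27.5 and 47.1 in Cdk8-/-, 10.1, 55.4 and 57.3 in Cdk19-/- and 32.6, 43.3 and 20.4 in double-knockout organoids. For Ak1, the values were 0.89 and 0.62, without a call.

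The knockouts were also measured against Cdk19-/- in place of WT. The double knockout had 23 genes higher and 2, Xpc and Ddb2, lower, where 14.4% of all genes were called higher and 11% lower. The log2 fold changes follow with their SE, as differences from Cdk19-/-. Of the regulators, Mdm2 gave 0.71 ± 0.093 (edgeR adjusted p = 0.000372), while Trp53 at -0.23 ± 0.09 (edgeR adjusted p = 0.0757) and Mdm4 at 0.21 ± 0.12 (edgeR adjusted p = 0.226) were not called. Among cell cycle genes edgeR gave 1.60 ± 0.13 (adjusted p = 3.38e-05) for Cdkn1a, 1.23 ± 0.085 (adjusted p = 6.52e-06) for Ccng1 and 1.10 ± 0.17 (adjusted p = 0.000794) for Plk2. The spindle genes followed with 0.69 ± 0.12 (adjusted p = 0.00175) for Gtse1 and 0.68 ± 0.16 (adjusted p = 0.0109) for Psrc1. The death effectors had edgeR values of 0.85 ± 0.11 (adjusted p = 0.000419) for Bax, 0.45 ± 0.10 (adjusted p = 0.00751) for Apaf1 and 0.74 ± 0.12 (adjusted p = 0.000998) for Aen. Among the death receptors, which lie at the cell surface, edgeR gave 1.24 ± 0.20 (adjusted p = 0.000983) for Fas, 0.81 ± 0.16 (adjusted p = 0.00348) for Tnfrsf10b and 2.19 ± 0.53 (adjusted p = 0.0104) for Eda2r. Further death genes had edgeR values of 0.96 ± 0.21 (adjusted p = 0.00564) for Phlda3 and 0.76 ± 0.16 (adjusted p = 0.0042) for Trp53inp1. At cell junctions and the endoplasmic reticulum edgeR gave 0.75 ± 0.12 (adjusted p = 0.000903) for Perp and 0.39 ± 0.089 (adjusted p = 0.0079) for Ei24. Repair genes that were higher had edgeR values of 0.74 ± 0.089 (adjusted p = 0.000255) for Ercc5 and 0.66 ± 0.17 (adjusted p = 0.0132) for Polk. The pair that recognises UV lesions was lower, at edgeR values of -0.42 ± 0.11 (adjusted p = 0.015) for Xpc and -0.42 ± 0.12 (adjusted p = 0.0203) for Ddb2. The stress genes had edgeR values of 2.78 ± 0.21 (adjusted p = 1.5e-05) for Ddit4l and 1.20 ± 0.17 (adjusted p = 0.000525) for Gdf15. The last genes called had edgeR values of 1.17 ± 0.19 (adjusted p = 0.00103) for Zmat3, 1.16 ± 0.14 (adjusted p = 0.00023) for Dcxr and 0.63 ± 0.10 (adjusted p = 0.000797) for Sesn2. Without both libraries at the WT level of Cdk19, edgeR no longer called Polk (0.38, adjusted p = 0.108) or Apaf1 (0.27, adjusted p = 0.0575), and it called Bbc3 (0.64, adjusted p = 0.0154). Leaving out single libraries ended the calls on Polk (double-knockout replicate 3, edgeR adjusted p = 0.0537), Ddb2 (double-knockout replicate 1, edgeR adjusted p = 0.071) and Psrc1 (Cdk19-/- replicate 3, edgeR adjusted p = 0.0516).

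Cdk8-/- had 20 genes higher and 2, again Xpc and Ddb2, lower than Cdk19-/-, with 8.51% of all genes higher and 5.31% lower. Mdm2 gave 0.63 ± 0.093 (edgeR adjusted p = 0.00187), while Trp53 at 0.10 ± 0.09 (edgeR adjusted p = 0.5) and Mdm4 at 0.11 ± 0.12 (edgeR adjusted p = 0.595) were not called. Among cell cycle genes edgeR gave 1.25 ± 0.13 (adjusted p = 0.000303) for Cdkn1a, 0.94 ± 0.084 (adjusted p = 7.29e-05) for Ccng1 and 1.00 ± 0.17 (adjusted p = 0.00362) for Plk2. The spindle genes followed with 0.81 ± 0.12 (adjusted p = 0.00201) for Gtse1. The death effectors had edgeR values of 0.84 ± 0.11 (adjusted p = 0.00125) for Bax, 0.39 ± 0.10 (adjusted p = 0.026) for Apaf1 and 0.64 ± 0.12 (adjusted p = 0.00551) for Aen. Among the death receptors, which lie at the cell surface, edgeR gave 0.81 ± 0.20 (adjusted p = 0.0197) for Fas, 0.57 ± 0.16 (adjusted p = 0.033) for Tnfrsf10b and 2.04 ± 0.53 (adjusted p = 0.0246) for Eda2r. Further death genes had edgeR values of 0.88 ± 0.21 (adjusted p = 0.0161) for Phlda3 and 0.66 ± 0.16 (adjusted p = 0.0167) for Trp53inp1. At cell junctions and the endoplasmic reticulum edgeR gave 0.52 ± 0.12 (adjusted p = 0.0135) for Perp. Repair genes that were higher had edgeR values of 0.71 ± 0.089 (adjusted p = 0.000772) for Ercc5. The pair that recognises UV lesions was lower, at edgeR values of -0.37 ± 0.11 (adjusted p = 0.0385) for Xpc and -0.46 ± 0.12 (adjusted p = 0.0221) for Ddb2. The stress genes had edgeR values of 3.03 ± 0.21 (adjusted p = 9.04e-06) for Ddit4l and 1.41 ± 0.17 (adjusted p = 0.000631) for Gdf15. The last genes called had edgeR values of 1.01 ± 0.19 (adjusted p = 0.00558) for Zmat3, 0.99 ± 0.14 (adjusted p = 0.00142) for Dcxr and 0.57 ± 0.10 (adjusted p = 0.00367) for Sesn2. Without Cdk19-/- replicate 2 the count of Cdk8-/- fell to 14, with 760 calls over all genes in place of 2155. Without Cdk19-/- replicate 3 it fell to 13, with 932 over all genes. The call on Apaf1 was lost without any 1 of 5 of the 6 libraries compared, those on Fas, Tnfrsf10b, Eda2r and Xpc without any 1 of 4, those on Phlda3 and Ddb2 without any 1 of 3, and those on Trp53inp1 and Perp without either of 2. Leaving out both libraries at the WT level of Cdk19 ended the call on Fas (0.70, edgeR adjusted p = 0.0542) and added Bbc3 (0.77, edgeR adjusted p = 0.00665) and Ei24 (0.34, edgeR adjusted p = 0.0149).

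Loss of Cdk19 alone gave no call among the 35 genes, but its libraries lay on both sides of WT for many of them. For 8 genes, Sesn2, Bax, Bbc3, Eda2r, Phlda3, Zmat3, Tnfrsf10b and Ei24, replicate 1 was above every WT library and the other two below every WT library. For 3 genes, Mdm2, Apaf1 and Ak1, it was the reverse. The share of all genes that split in this way was not counted. Over all genes replicate 1 also stood apart from its group, with a chi-square per gene of 25.9 and 27.4. Between replicates 2 and 3 it was 4.31. At an unadjusted p under 0.05, edgeR had 2 of the 35 genes and 1691 of all genes, and DESeq2 called 1 of the 35, Ddit4l. The log2 fold change against WT was 0.023 ± 0.09 (edgeR adjusted p = 0.963) for Trp53, 0.028 ± 0.093 (adjusted p = 0.958) for Mdm2 and 0.014 ± 0.12 (adjusted p = 0.986) for Mdm4. It was -0.17 ± 0.13 (edgeR adjusted p = 0.723) for Cdkn1a and -0.012 ± 0.084 (adjusted p = 0.982) for Ccng1. Eda2r held 289 normalised counts in the library at the WT level of Cdk19 and 39.9 and 47.4 in the other two, against 217 to 256 in WT. With all 3 libraries the log2 fold changes were -0.93 ± 0.53 (edgeR adjusted p = 0.579) for Eda2r, -0.20 ± 0.19 (adjusted p = 0.8) for Zmat3, 0.97 ± 0.51 (adjusted p = 0.533) for Ak1 and -1.18 ± 0.22 (adjusted p = 0.101) for Ddit4l. Without Cdk19-/- replicate 1 these 4 passed, with 521 calls over all genes in place of 0. Eda2r stood at -2.43 (edgeR adjusted p = 0.000107), Zmat3 at -0.51 (edgeR adjusted p = 0.0359), Ddit4l at -1.19 (edgeR adjusted p = 0.0315) and Ak1 at 1.44 (edgeR adjusted p = 0.0403). Phlda3 then stood at -0.37 (edgeR adjusted p = 0.322). Ddit4l had no such split, and its 3 Cdk19-/- libraries lay close together below WT.

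**Figure D3:**
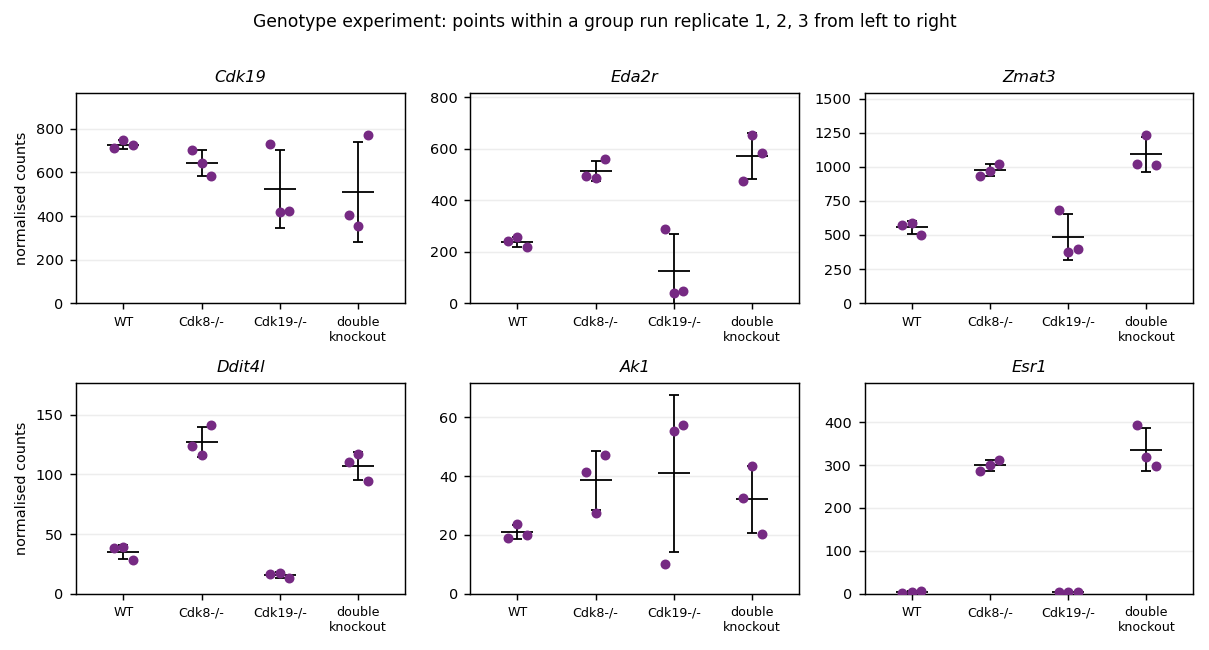
Normalised counts (y axis, from 0) of Cdk19, 4 p53 pathway genes and Esr1 in the 4 genotypes, points running from replicate 1 to 3 from left to right within a group, with the mean and SD; the SD of Eda2r in Cdk19-/- reaches past 0 and is drawn to 0. In Cdk19-/- the first library stands apart for Cdk19, Eda2r, Zmat3 and Ak1 and not for Ddit4l.

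Removing Cdk19 on top of Cdk8 gave no further call among the 35 genes (0.0256% of all genes were called). At an unadjusted p under 0.05, edgeR had 4 of the 35 and 2417 of all genes. Trp53 differed by -0.33 ± 0.09 (edgeR adjusted p = 0.153) between the double knockout and Cdk8-/-, with a 95% interval of -0.53 to -0.14, and its double-knockout libraries were all below the Cdk8-/- libraries. Ccng1 differed by 0.29 ± 0.083 (edgeR adjusted p = 0.167), interval 0.11 to 0.47, and Cdkn1a by 0.36 ± 0.13 (edgeR adjusted p = 0.227), interval 0.075 to 0.64, each with all double-knockout libraries above all Cdk8-/- libraries. Mdm2 gave 0.08 ± 0.092 (edgeR adjusted p = 0.73) and Mdm4 0.10 ± 0.12 (edgeR adjusted p = 0.741). DESeq2 called Trp53 and Ccng1, and so did edgeR without Cdk8-/- replicate 3, at -0.38 (edgeR adjusted p = 0.0375) and 0.35 (edgeR adjusted p = 0.0447), with 839 calls over all genes in place of 4.

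The departure from additivity asks whether the double knockout differs from the sum of the 2 single losses on the log2 scale. None of the 35 genes passed (0.0256% of all genes), with 6 of them and 2269 of all genes at an unadjusted p under 0.05 in edgeR, and none by DESeq2. The departure was -0.36 ± 0.13 (edgeR adjusted p = 0.234) for Trp53, 0.052 ± 0.13 (adjusted p = 0.892) for Mdm2 and 0.088 ± 0.17 (adjusted p = 0.856) for Mdm4. It was 0.53 ± 0.18 (edgeR adjusted p = 0.221) for Cdkn1a and 0.30 ± 0.12 (adjusted p = 0.272) for Ccng1. Without both libraries at the WT level of Cdk19, Eda2r at 2.58 (edgeR adjusted p = 0.00155) and Zmat3 at 0.73 (edgeR adjusted p = 0.0237) departed upwards. Leaving out Cdk19-/- replicate 1 alone called Eda2r and Zmat3 as well. Over all genes there were 467 calls in that fit and 728 without both libraries, in place of 4.

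Genes of the pathway outside the 35 were read from lists of the same kind, beside all genes at 2.79% higher and 2.36% lower in Cdk8-/- and 9.41% higher and 7.9% lower in the double knockout. From each list the called genes of largest fold change are given, leaving out those whose mean fell below 50 normalised counts. Of 45 further p53 targets tested, 10 were higher and 2 lower in Cdk8-/-, and 16 were higher and 2 lower in the double knockout. Their median log2 fold change was 0.23 and 0.22. In edgeR the largest increases of the double knockout at that mean were Crip2 (2.67 ± 0.44, adjusted p = 0.00224), Thbs1 (1.65 ± 0.26, adjusted p = 0.00185), Sulf2 (1.16 ± 0.20, adjusted p = 0.00258) and Kitl (1.05 ± 0.15, adjusted p = 0.00117), which encode a LIM protein, thrombospondin 1, a heparan sulphate sulphatase and stem cell factor. Zfp365, under that mean and named after its values were seen, ranked above them, and its normalised counts were 1.01, 1.03 and 0 for WT against 17.3, 28.6 and 24.3 for the double knockout. The 2 genes called lower by edgeR were Notch1 (-0.71 ± 0.13, adjusted p = 0.00331) and Ppm1d (-0.39 ± 0.11, adjusted p = 0.0342), a receptor of cell fate and the phosphatase WIP1 that switches p53 signalling off. Leaving out 1 library lowered the count of increases in Cdk8-/- to 3 (without WT replicate 1 or Cdk8-/- replicate 3) or 4 (without WT replicate 2 or 3 or Cdk8-/- replicate 1), and that in the double knockout to 8 without WT replicate 1.

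Upstream of p53, none of 39 kinases, ribosomal proteins and cofactors was higher in the double knockout and 5 were lower, against 2 lower in Cdk8-/-, where 7.9% and 2.36% of all genes were lower. The largest edgeR decreases were Rpl26 (-0.72 ± 0.10, adjusted p = 0.00117), Chek1 (-0.59 ± 0.13, adjusted p = 0.00864), Mdc1 (-0.39 ± 0.083, adjusted p = 0.00841) and Sirt1 (-0.33 ± 0.10, adjusted p = 0.0443), of which Rpl26 encodes a ribosomal protein that binds p53 mRNA and Chek1 the checkpoint kinase CHK1. That count was 3 when WT replicate 1, 2 or 3 or double-knockout replicate 1 or 2 was left out.

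A list of 25 cell cycle genes holds those that p53 is known to lower through p21 and the DREAM repressor complex. In the double knockout 14 of 25 were lower and none higher (7.9% of all genes were lower), with a median log2 fold change of -0.49, whereas Cdk8-/- had none in either direction and a median of -0.048. edgeR gave Ccne2 (-0.75 ± 0.19, adjusted p = 0.0195) and E2f1 (-0.62 ± 0.12, adjusted p = 0.00564), a cyclin and a transcription factor of S phase entry, and Chek1 (-0.59 ± 0.13, adjusted p = 0.00864) and Cdc25c (-0.57 ± 0.15, adjusted p = 0.0257), a kinase and a phosphatase of the G2 checkpoint. Directly between the double knockout and Cdk8-/-, edgeR called none of the 25, with 21 at an unadjusted p under 0.05, DESeq2 called 5 lower, and edgeR without Cdk8-/- replicate 3 called 16 lower. The 14 calls against WT became 9 without both libraries at the WT level of Cdk19, 7 when double-knockout replicate 2 was left out, 6 for WT replicate 1 and 5 for WT replicate 2, WT replicate 3 or double-knockout replicate 3.

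Of 7 other inhibitors of cyclin-dependent kinases, 1 was higher and 1 lower in the double knockout. In Cdk8-/- Cdkn2c and Cdkn1b were lower, and both calls were lost without any 1 library. By edgeR those of the double knockout were Cdkn2b (0.75 ± 0.18, adjusted p = 0.0137) and Cdkn2c (-0.74 ± 0.12, adjusted p = 0.00236), which encode p15 and p18. Without WT replicate 1 the increase was no longer called, and without double-knockout replicate 3 there were 2 decreases. The integrated stress response, which works through ATF4 and CHOP and shares Sesn2 and Gdf15 with the list, had 3 of 15 genes higher and 4 lower there, with 9.41% and 7.9% over all genes. Beside those shared genes, edgeR called Nupr1 (1.01 ± 0.24, adjusted p = 0.0136) higher and Slc7a11 (-1.06 ± 0.31, adjusted p = 0.0339), Chac1 (-0.97 ± 0.30, adjusted p = 0.0446), Atf5 (-0.74 ± 0.18, adjusted p = 0.0162) and Atf4 (-0.32 ± 0.10, adjusted p = 0.0425) lower. The count of decreases was 0 without WT replicate 3, 1 when WT replicate 2 or double-knockout replicate 3 was absent, and 2 when WT replicate 1, double-knockout replicate 1 or both libraries at the WT level of Cdk19 were left out.

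p53 targets were also higher in WT organoids treated with Senexin B, although Cdkn1a was not. At 16 h 11 of the 34 genes tested were higher than with DMSO and 1, Fas, was lower, with 4.36% of the 15467 genes tested called higher and 3.39% lower. At 24 h 18 were higher and 3, Cdkn1a, Fas and Sesn1, were lower, with a background of 14.8% higher and 12.7% lower. Ak1 had too few counts for a test in these libraries. The median log2 fold change was 0.16 at 16 h and 0.22 at 24 h, beside -0.0062 and 0.0011 over all genes. At 24 h all Senexin B libraries lay above all DMSO libraries for 20 of the 34, against 23.5% of all genes. All 11 genes higher at 16 h were among the 18 higher at 24 h, as were 77.9% of the 674 genes higher at 16 h over all genes. With the replicate number as a block the counts of both directions were 16 and 22 in place of 12 and 21, while those over all genes were 2293 and 5712 in place of 1198 and 4252, and the 5 calls gained are given with their genes.

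Neither p53 nor its inhibitors passed at 16 h. Trp53 stood at 5779.6, 5368 and 5459 normalised counts with DMSO and 5819.6, 5825 and 5892 with Senexin B at 16 h, and at 5266, 5471 and 5529 and 6088, 6491 and 6346 at 24 h. At 24 h every Senexin B library was above every DMSO library. For Trp53, its log2 fold change was 0.079 ± 0.056 (edgeR adjusted p = 0.45) at 16 h and 0.22 ± 0.056 (edgeR adjusted p = 0.0108) at 24 h. Without Senexin B 24 h replicate 2 the 24 h call was lost (0.20, edgeR adjusted p = 0.0537). Mdm2 stood at 1003, 1097 and 1086 normalised counts with DMSO and 994, 1099 and 1036 with Senexin B at 16 h, and at 1023, 984 and 1016 and 1072, 1076 and 1049.9 at 24 h. The groups overlapped at 16 h, and at 24 h Senexin B lay narrowly above DMSO. For Mdm2, its log2 fold change was -0.026 ± 0.064 (edgeR adjusted p = 0.863) at 16 h and 0.082 ± 0.064 (edgeR adjusted p = 0.371) at 24 h. Mdm4 stood at 3454, 4271 and 3726 normalised counts with DMSO and 4049, 4225 and 4148 with Senexin B at 16 h, and at 4445, 3798 and 4142 and 4229, 3949 and 4271 at 24 h. Its groups overlapped at both times. For Mdm4, its log2 fold change was 0.12 ± 0.08 (edgeR adjusted p = 0.428) at 16 h and 0.0073 ± 0.08 (edgeR adjusted p = 0.954) at 24 h.

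Cdkn1a was lower where most of the list was higher. Cdkn1a stood at 7223, 5242 and 6364 normalised counts with DMSO and 5167, 5052 and 5206 with Senexin B at 16 h, and at 5684, 4411 and 4546 and 4200.0, 3749 and 3271 at 24 h. All Senexin B libraries were below all DMSO libraries at each time, and the DMSO libraries differed among themselves by more than the Senexin B libraries did. For Cdkn1a, its log2 fold change was -0.29 ± 0.12 (edgeR adjusted p = 0.169) at 16 h and -0.38 ± 0.12 (edgeR adjusted p = 0.0296) at 24 h. With the replicate block the decrease passed at 16 h too, at -0.28 (edgeR adjusted p = 0.037). The 24 h call was lost without DMSO 24 h replicate 1 (-0.26, edgeR adjusted p = 0.139) and without Senexin B 24 h replicate 2 or 3. Ccng1 stood at 3209, 3979 and 3976 normalised counts with DMSO and 4146, 4949 and 4578 with Senexin B at 16 h, and at 3444, 3593 and 3868 and 4549, 5041 and 4905 at 24 h. All Senexin B libraries were above all DMSO libraries at each time. For Ccng1, its log2 fold change was 0.29 ± 0.091 (edgeR adjusted p = 0.0639) at 16 h and 0.41 ± 0.091 (edgeR adjusted p = 0.00461) at 24 h. With the replicate block its 16 h increase passed at 0.30 (edgeR adjusted p = 0.00462).

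The other cell cycle genes rose, apart from Btg2. Plk2 stood at 508, 593 and 586 normalised counts with DMSO and 977, 993 and 1027 with Senexin B at 16 h, and at 592, 545 and 576 and 1126, 1136 and 1037 at 24 h. There was a wide gap between the groups at both times. For Plk2, its log2 fold change was 0.83 ± 0.077 (edgeR adjusted p = 2.47e-05) at 16 h and 0.95 ± 0.076 (edgeR adjusted p = 3.71e-06) at 24 h. Gtse1 stood at 1046, 1074 and 1159 normalised counts with DMSO and 1574, 1687 and 1575 with Senexin B at 16 h, and at 829.8, 953 and 981 and 1697, 1802 and 1763 at 24 h. Again no library of one group reached the other. For Gtse1, its log2 fold change was 0.56 ± 0.073 (edgeR adjusted p = 0.000354) at 16 h and 0.93 ± 0.074 (edgeR adjusted p = 3.62e-06) at 24 h. Psrc1 ranged from 885 to 940.0 normalised counts with DMSO and 1319 to 1457 with Senexin B at 16 h, and from 959 to 1096 and 1425 to 1645 at 24 h. For Psrc1, its log2 fold change was 0.61 ± 0.077 (edgeR adjusted p = 0.000303) at 16 h and 0.63 ± 0.077 (edgeR adjusted p = 9.36e-05) at 24 h. Ckap2 passed at 24 h. Ckap2 ranged from 939 to 1237 normalised counts with DMSO and 1157 to 1383 with Senexin B at 16 h, and from 866 to 1134 and 1266 to 1581 at 24 h. For Ckap2, its log2 fold change was 0.13 ± 0.13 (edgeR adjusted p = 0.592) at 16 h and 0.49 ± 0.13 (edgeR adjusted p = 0.0119) at 24 h. Btg2 ranged from 2817 to 3399 normalised counts with DMSO and 3493 to 3669 with Senexin B at 16 h, and from 3426 to 3921 and 3561 to 4049 at 24 h. For Btg2, the log2 fold change was 0.23 at 16 h and 0.049 at 24 h, and with the replicate block the 16 h value passed at 0.24 (edgeR adjusted p = 0.0175).

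**Figure D4:**
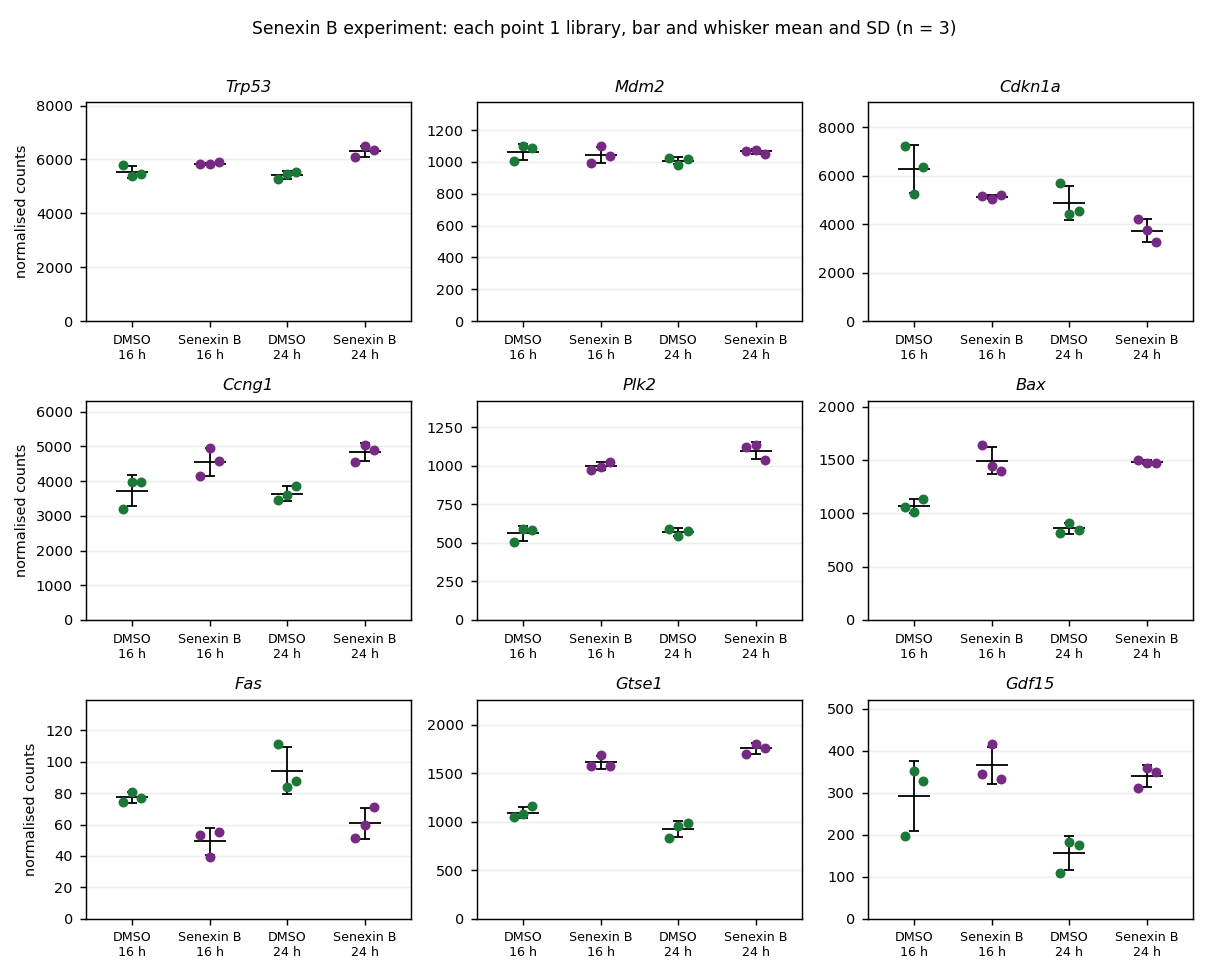
Normalised counts (y axis, from 0) of 9 of the genes with DMSO or Senexin B at 16 h and 24 h, each point 1 library, with the mean and SD of the 3. Plk2, Gtse1 and Bax lie above their DMSO libraries and Cdkn1a and Fas below them.

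Of the 12 genes of cell death, 6 were higher at 16 h and 8 at 24 h, and 1 was lower at each. Bax stood at 1063, 1010.3 and 1136 normalised counts with DMSO and 1639.7, 1439.7 and 1400.4 with Senexin B at 16 h, and at 818, 909.6 and 843 and 1502, 1473 and 1468 at 24 h. All Senexin B libraries lay above all DMSO libraries of their time. For Bax, its log2 fold change was 0.48 ± 0.075 (edgeR adjusted p = 0.00123) at 16 h and 0.79 ± 0.075 (edgeR adjusted p = 1.32e-05) at 24 h. The BH3-only genes passed at both times. Bbc3 stood at 451, 388 and 361 normalised counts with DMSO and 549, 485 and 546 with Senexin B at 16 h, and at 440.1, 356 and 374 and 536, 525 and 536 at 24 h. For Bbc3, its log2 fold change was 0.40 ± 0.10 (edgeR adjusted p = 0.0295) at 16 h and 0.45 ± 0.10 (edgeR adjusted p = 0.00586) at 24 h. Its Senexin B libraries lay above every DMSO library at each time. Pmaip1 stood at 1211, 1059 and 1229 normalised counts with DMSO and 1520.5, 1604 and 1642 with Senexin B at 16 h, and at 1498, 1322 and 1514 and 1727, 1668 and 1638 at 24 h. For Pmaip1, its log2 fold change was 0.45 ± 0.075 (edgeR adjusted p = 0.00233) at 16 h and 0.22 ± 0.074 (edgeR adjusted p = 0.0443) at 24 h. No library overlapped between the groups, and the gap was narrower at 24 h.

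Fas and the other receptors went in opposite directions. Fas stood at 74.2, 81 and 76.7 normalised counts with DMSO and 53.5, 39.6 and 55.2 with Senexin B at 16 h, and at 111, 83.8 and 87.7 and 51.3, 59.9 and 71.1 at 24 h. Every Senexin B library was below every DMSO library of its time. For Fas, its log2 fold change was -0.64 ± 0.18 (edgeR adjusted p = 0.0454) at 16 h and -0.63 ± 0.17 (edgeR adjusted p = 0.0158) at 24 h. Tnfrsf10b ranged from 763 to 794 normalised counts with DMSO and 866 to 898 with Senexin B at 16 h, and from 696 to 758 and 882 to 1004 at 24 h. For Tnfrsf10b, its log2 fold change was 0.18 ± 0.07 (edgeR adjusted p = 0.136) at 16 h and 0.35 ± 0.07 (edgeR adjusted p = 0.00265) at 24 h. Eda2r was higher at both times. Eda2r stood at 347, 512 and 449 normalised counts with DMSO and 557, 633 and 698 with Senexin B at 16 h, and at 459, 437 and 563 and 683, 669.6 and 637 at 24 h. For Eda2r, its log2 fold change was 0.53 ± 0.13 (edgeR adjusted p = 0.0264) at 16 h and 0.45 ± 0.13 (edgeR adjusted p = 0.0229) at 24 h. The call on Fas at 16 h was lost without any 1 of 5 of the 6 libraries, that on Bbc3 at 16 h without 4 of them, that on Pmaip1 at 24 h without any 1 of the 6, and those on Eda2r without 4 at each time. Fas at 24 h lost its call without DMSO 24 h replicate 1 (-0.50, edgeR adjusted p = 0.0758) or Senexin B 24 h replicate 1 or 2, and Ckap2 without DMSO 24 h replicate 1 (0.37, edgeR adjusted p = 0.0546) or Senexin B 24 h replicate 2.

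Aen and Phlda3 were called at both times. Aen ranged from 1268 to 1656 normalised counts with DMSO and 1842 to 1957 with Senexin B at 16 h, and from 1132 to 1284 and 1958 to 2038 at 24 h. For Aen, its log2 fold change was 0.36 ± 0.086 (edgeR adjusted p = 0.0207) at 16 h and 0.73 ± 0.087 (edgeR adjusted p = 7.62e-05) at 24 h. Its 16 h call was lost without Senexin B 16 h replicate 2 (0.34, edgeR adjusted p = 0.0764) or 3. Phlda3 stood at 708, 597 and 686 normalised counts with DMSO and 923, 1023 and 819 with Senexin B at 16 h, and at 530.2, 606 and 552 and 969, 1086 and 946 at 24 h. For Phlda3, its log2 fold change was 0.47 ± 0.10 (edgeR adjusted p = 0.00825) at 16 h and 0.83 ± 0.10 (edgeR adjusted p = 7.55e-05) at 24 h. Its Senexin B libraries were all above its DMSO libraries. Ei24 passed at 24 h. Ei24 ranged from 4499 to 4753 normalised counts with DMSO and 4504 to 4964 with Senexin B at 16 h, and from 4336 to 4401 and 5103 to 5249 at 24 h. For Ei24, its log2 fold change was 0.035 ± 0.056 (edgeR adjusted p = 0.781) at 16 h and 0.24 ± 0.056 (edgeR adjusted p = 0.00647) at 24 h.

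The remaining genes of cell death did not pass. Trp53inp1 ranged from 493 to 506 normalised counts with DMSO and 545 to 657 with Senexin B at 16 h, and from 626 to 835 and 649 to 712 at 24 h. Perp ranged from 5252 to 5983 normalised counts with DMSO and 4914 to 5613 with Senexin B at 16 h, and from 5203 to 5650.4 and 5023 to 5566 at 24 h. Apaf1 ranged from 938 to 1221 normalised counts with DMSO and 1058 to 1163 with Senexin B at 16 h, and from 1253 to 1306 and 1077 to 1134 at 24 h. Their log2 fold changes at 24 h were -0.13 for Trp53inp1, -0.068 for Perp and -0.20 for Apaf1, and 0.28, -0.068 and 0.02 at 16 h. None of the repair genes passed at either time either. Ercc5 ranged from 336 to 455 normalised counts with DMSO and 375 to 467 with Senexin B at 16 h, and from 417 to 463 and 446 to 529.6 at 24 h. Polk ranged from 275 to 369 normalised counts with DMSO and 303 to 383 with Senexin B at 16 h, and from 329 to 398 and 328 to 346 at 24 h. Ddb2 ranged from 666 to 725 normalised counts with DMSO and 603 to 649.7 with Senexin B at 16 h, and from 741 to 781 and 708 to 742 at 24 h. Polk spread more widely with DMSO than with Senexin B at 24 h. The 24 h values were 0.17 for Ercc5, -0.10 for Polk, -0.077 for Ddb2, -0.0091 for Xpc and -0.17 for Rrm2b. Xpc ranged from 734 to 852 normalised counts with DMSO and 818 to 852 with Senexin B at 16 h, and from 931 to 1017 and 951 to 1019 at 24 h. Rrm2b ranged from 108 to 157 normalised counts with DMSO and 90.5 to 137 with Senexin B at 16 h, and from 129 to 186 and 127 to 148 at 24 h.

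Of the genes of stress and metabolism, 4 were higher at 24 h and 1 lower. Gdf15 stood at 197, 352 and 329 normalised counts with DMSO and 344, 416 and 333 with Senexin B at 16 h, and at 109.5, 182 and 176 and 310.0, 358 and 349 at 24 h. At 16 h the lowest DMSO library lay far below the other two and the groups overlapped, and at 24 h they did not. For Gdf15, its log2 fold change was 0.32 ± 0.20 (edgeR adjusted p = 0.382) at 16 h and 1.12 ± 0.21 (edgeR adjusted p = 0.00162) at 24 h. Dcxr stood at 909.6, 798 and 902 normalised counts with DMSO and 1466, 1234 and 1274 with Senexin B at 16 h, and at 732, 665 and 644 and 1329, 1215 and 1122 at 24 h. For Dcxr, its log2 fold change was 0.61 ± 0.09 (edgeR adjusted p = 0.000878) at 16 h and 0.85 ± 0.091 (edgeR adjusted p = 3.64e-05) at 24 h. All Senexin B libraries exceeded all DMSO libraries. Ddit4l stood at 25.4, 14.6 and 12.9 normalised counts with DMSO and 36, 29.4 and 35.8 with Senexin B at 16 h, and at 20.4, 12.7 and 18.1 and 45.2, 40.6 and 29.4 at 24 h. For Ddit4l, its log2 fold change was 0.93 ± 0.28 (edgeR adjusted p = 0.0575) at 16 h and 1.16 ± 0.28 (edgeR adjusted p = 0.00703) at 24 h. With the replicate block its 16 h increase passed at 0.94 (edgeR adjusted p = 0.0219). Zmat3 was called at both times. Zmat3 ranged from 1415 to 1620.0 normalised counts with DMSO and 1848 to 2004 with Senexin B at 16 h, and from 1228 to 1380.4 and 1911 to 2104 at 24 h. For Zmat3, its log2 fold change was 0.37 ± 0.073 (edgeR adjusted p = 0.00626) at 16 h and 0.61 ± 0.073 (edgeR adjusted p = 7.62e-05) at 24 h.

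Sesn1 was lower, and Sesn2 passed only with the block. Sesn1 stood at 1235, 1202 and 1155 normalised counts with DMSO and 1052, 1074 and 1080.5 with Senexin B at 16 h, and at 1309.6, 1251 and 1198 and 1038, 986 and 1099.7 at 24 h. Senexin B libraries lay below DMSO libraries at each time. For Sesn1, its log2 fold change was -0.16 ± 0.065 (edgeR adjusted p = 0.146) at 16 h and -0.27 ± 0.065 (edgeR adjusted p = 0.00791) at 24 h. Sesn2 ranged from 658 to 767 normalised counts with DMSO and 715 to 772 with Senexin B at 16 h, and from 655 to 704 and 756 to 796 at 24 h. For Sesn2, the log2 fold change was 0.076 at 16 h and 0.18 ± 0.074 (edgeR adjusted p = 0.0857) at 24 h, and with the replicate block the latter passed at 0.18 (edgeR adjusted p = 0.036). Abhd4 ranged from 2121 to 2887 normalised counts with DMSO and 2318 to 2535 with Senexin B at 16 h, and from 2445 to 3023 and 2428 to 2582 at 24 h. For Abhd4, the values were 0.0062 and -0.12, without a call. Ak1 held 4.76 to 13.6 normalised counts with DMSO and 2.03 to 7.18 with Senexin B at 24 h, and 2.99 to 10.7 and 5.11 to 7.11 at 16 h, and was not tested.

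The 2 times were also compared in the vehicle alone, where 4 of the 34 genes were higher and 5 lower at 24 h than at 16 h (11.1% of all genes were called in either direction). edgeR gave increases of 0.57 ± 0.10 (adjusted p = 0.00528) for Trp53inp1 and 0.31 ± 0.075 (adjusted p = 0.0201) for Pmaip1, and of 0.29 ± 0.072 (adjusted p = 0.0204) for Xpc and 0.26 ± 0.079 (adjusted p = 0.0493) for Btg2. Decreases in edgeR were -0.91 ± 0.21 (adjusted p = 0.0162) for Gdf15, -0.35 ± 0.091 (adjusted p = 0.0257) for Dcxr and -0.32 ± 0.076 (adjusted p = 0.0179) for Bax, then -0.31 ± 0.087 (adjusted p = 0.0359) for Aen and -0.25 ± 0.074 (adjusted p = 0.047) for Gtse1. Of the regulators, Trp53 stood at -0.03 ± 0.056 (edgeR adjusted p = 0.773), Mdm2 at -0.076 ± 0.064 (adjusted p = 0.474) and Mdm4 at 0.11 ± 0.08 (adjusted p = 0.386). Cdkn1a gave -0.36 ± 0.12 (edgeR adjusted p = 0.0646) and Ccng1 -0.034 ± 0.091 (adjusted p = 0.847). Only 1 of the 34 was called with the 6 DMSO libraries alone in the fit, with 385 calls over all genes in place of 1719. Leaving out single DMSO libraries gave 2 to 10 calls, and 434 to 2296 over all genes. The count was 2 without DMSO 16 h replicate 3 (434 over all genes) and 3 without DMSO 24 h replicate 1 (522). It was 4 without DMSO 24 h replicate 2 (1095) or 3 (946).

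None of the Senexin B effects was shown to differ between 16 h and 24 h (0% of all genes passed this test in edgeR). At an unadjusted p under 0.05 edgeR had 9 of the 34 genes and 1995 of all genes, and DESeq2 called none of the 34. The difference was 0.14 ± 0.079 (edgeR adjusted p = 0.488) for Trp53, 0.11 ± 0.091 (adjusted p = 0.656) for Mdm2 and -0.11 ± 0.11 (adjusted p = 0.726) for Mdm4. It was -0.10 ± 0.17 (edgeR adjusted p = 0.857) for Cdkn1a and 0.12 ± 0.13 (adjusted p = 0.74) for Ccng1. The largest was 0.80 ± 0.29 (edgeR adjusted p = 0.296) for Gdf15, whose DMSO level was itself lower at 24 h, and that gene was called when no filter on low counts was applied.

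The double knockout and 24 h of Senexin B were set side by side, with 22 and 18 genes called higher. Called higher in both were 13 genes, 59.1% of the former and 72.2% of the latter, where over all genes 215 were shared, 14.6% of 1468 and 9.38% of 2293: Ccng1, Bax, Phlda3, Zmat3, Aen, Plk2, Gtse1, Tnfrsf10b, Ddit4l, Gdf15, Psrc1, Dcxr and Ei24. Cdkn1a and Fas were higher in the double knockout and lower with Senexin B: 1.43 against -0.38 for Cdkn1a and 1.17 against -0.63 for Fas, as log2 fold changes. A further 7 were higher in the double knockout without a call at 24 h of Senexin B, namely Mdm2, Trp53inp1, Sesn2, Perp, Polk, Ercc5 and Apaf1. The reverse held for 5, Trp53, Bbc3, Pmaip1, Eda2r and Ckap2. The remaining genes were Ddb2, lower in the double knockout only, Sesn1, lower with Senexin B only, and Mdm4, Btg2, Rrm2b, Xpc, Abhd4 and Ak1, called in neither. The experiments share no library and differ in library type, depth, duration and CreERT2, and the difference between them was not tested.

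**Figure D5:**
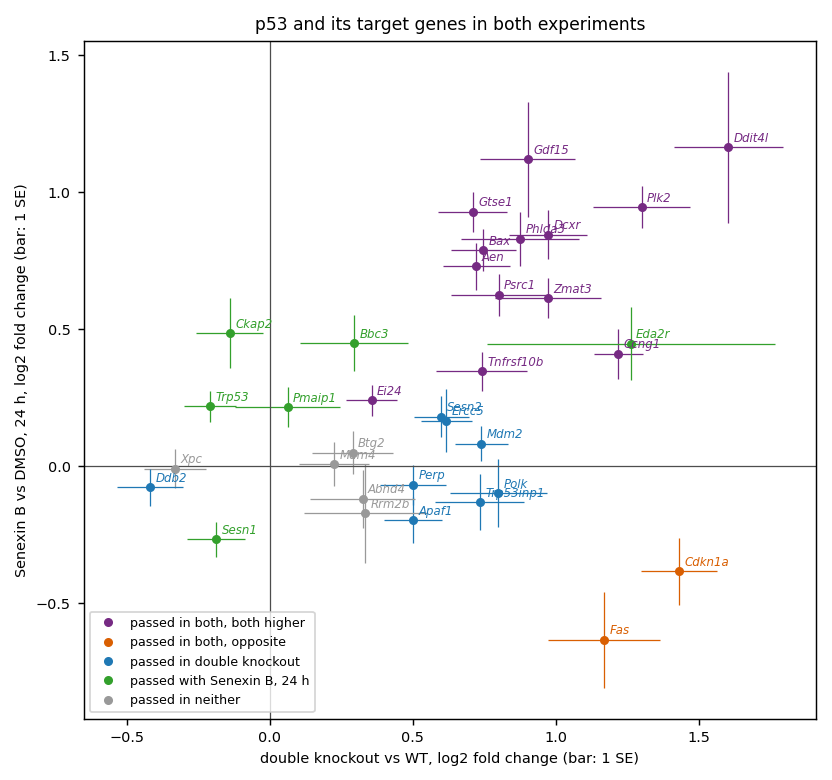
Log2 fold change in the double knockout against WT (x axis) and with Senexin B against DMSO at 24 h (y axis) for the 34 genes tested in both, with bars of 1 SE and colours for where a gene passed. The 13 genes higher in both lie in the upper right, and Cdkn1a and Fas in the lower right.

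Outside the 35 genes, 17 of 44 further p53 targets were higher and 6 lower with Senexin B at 24 h, against 6 and 5 at 16 h, where all genes gave 14.8% and 12.7% at 24 h and 4.36% and 3.39% at 16 h. By edgeR the largest increases at 24 h were Thbs1 (1.97 ± 0.27, adjusted p = 0.000207), Crip2 (1.13 ± 0.13, adjusted p = 5.33e-05), Sfn (0.82 ± 0.10, adjusted p = 8.24e-05) and Mgmt (0.76 ± 0.13, adjusted p = 0.000869), Sfn encoding stratifin and Mgmt a DNA repair methyltransferase. Decreases in edgeR included Ndrg1 (-1.04 ± 0.15, adjusted p = 0.000242), Ccng2 (-0.76 ± 0.11, adjusted p = 0.00036) and Notch1 (-0.49 ± 0.091, adjusted p = 0.00162), with Ccng2 encoding cyclin G2. The 17 increases became 10 without Senexin B 24 h replicate 2. Of 38 upstream kinases and cofactors, 6 were higher and 9 lower at 24 h, beside the same 14.8% and 12.7% of all genes. edgeR gave Rpl26 (0.51 ± 0.069, adjusted p = 0.000172), Rpl5 (0.48 ± 0.082, adjusted p = 0.000896), Aurka (0.44 ± 0.086, adjusted p = 0.00235) and Chek2 (0.40 ± 0.087, adjusted p = 0.00435) as the largest increases and Setd7 (-0.74 ± 0.09, adjusted p = 9.19e-05), Atm (-0.62 ± 0.15, adjusted p = 0.00877), Ep300 (-0.61 ± 0.10, adjusted p = 0.000854) and Hipk2 (-0.59 ± 0.18, adjusted p = 0.0267) as the largest decreases.

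Of the 25 genes lowered through p21 and DREAM, 9 were higher and none lower with Senexin B at 24 h (14.8% and 12.7% over all genes), with a median log2 fold change of 0.16, after 1 decrease at 16 h. By edgeR the largest were E2f1 (0.57 ± 0.10, adjusted p = 0.00131), Birc5 (0.41 ± 0.09, adjusted p = 0.00433), Mcm3 (0.40 ± 0.10, adjusted p = 0.0074) and Cdc20 (0.36 ± 0.067, adjusted p = 0.00158), a transcription factor, survivin, a helicase subunit and an activator of mitotic exit. That count was 5 without DMSO 24 h replicate 1 or Senexin B 24 h replicate 2. Cdkn1c, encoding p57, was the single other inhibitor of cyclin-dependent kinases called at 24 h, at 0.50 ± 0.15 (edgeR adjusted p = 0.0257), and its call was lost without DMSO 24 h replicate 1 or 3 or Senexin B 24 h replicate 2 or 3. At 16 h Cdkn2d and Cdkn2c were called lower and none higher, with 1 of these left without replicate 2 or 3 of either group. In the integrated stress response 3 of 15 genes were higher and 2 lower at 24 h, and 8 and 2 with the replicate block, beside 14.8% and 12.7% of all genes without the block, which raised the calls over all genes from 4252 to 5712. By edgeR these were Nupr1 (0.84 ± 0.11, adjusted p = 0.000124) and Atf4 (0.27 ± 0.087, adjusted p = 0.0357) besides Gdf15, and Vldlr (-0.66 ± 0.16, adjusted p = 0.00736) and Ddit4 (-0.27 ± 0.088, adjusted p = 0.0331) in the other direction. Between the DMSO times 9 of those 15 genes were lower at 24 h, with a median log2 fold change of -0.57, beside 6.59% of all genes and a median of 0.00078.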

How the data were processed

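Polyadenylated or rRNA-depleted RNA (the labels name both) from 24 organoid libraries in 8 groups of 3 was sequenced as single 50 bp reads by the authors. The deposited tables hold read counts per Ensembl gene, which the authors made with STAR on GRCm38.p6 with Ensembl 93 genes; the submitters' notes name STAR 2.6.0c. Of the 4 columns, the counts assigned to the second strand were used, and those regardless of strand were an alternative. Uniquely mapped reads on no gene of the strand used were 38.4% to 40.6% of reads in the genotype libraries. In the Senexin B libraries they were 10.2% to 12.8%. They were left out, as were multimapping reads, unmapped reads and any other row that names no gene.

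Each experiment was fitted separately over its 12 libraries with 4 group means in edgeR 4.0.16 (TMM scaling, filterByExpr, quasi-likelihood test, R 4.3.3), leaving 15602 and 15467 genes, and p-values were adjusted over all of them (Benjamini-Hochberg, called under 0.05, two-sided). Normalised counts are counts scaled to the mean effective library size of an experiment. DESeq2 1.42.0, other filters and scalings, the libraries of 1 comparison alone and leaving out each library were alternatives. No 2 libraries of a group differed by as little as sampling noise, with a chi-square per gene of at least 2.44 in the genotype and 4.72 in the Senexin B libraries.

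The labels number replicates 1 to 3 in each group. Deviations of same-numbered Senexin B and DMSO libraries correlated across genes at 0.303, 0.101 and 0.11 at 16 h and 0.377, 0.137 and 0.187 at 24 h, so these numbers were taken as pairs, from the correlations alone, although libraries numbered 2 in one group and 3 in the other also correlated, at up to 0.154 at 16 h and 0.147 at 24 h, and the replicate block is given where it changed a call. Same-numbered genotype libraries did not correlate in this way.

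The 35 genes and the other lists were chosen with earlier results of these data known. All 35 genes are named with values, with full statistics where called and for Trp53, Mdm2, Mdm4, Cdkn1a and Ccng1 throughout. From each other list the called genes of largest fold change were named, at most 4 per direction and only where the mean reached 50 normalised counts. A gene that this rule names is not reported here, though it is included in the counts of its list. Gene positions came from GENCODE annotation of GRCm38, and promoter sequences from RefSeq.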

Additional observations from a re-analysis of the deposited data

How the results depend on the processing

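Of 5507 values of the 35 genes over all 11 comparisons and the other settings, 5262 stayed on the same side of the threshold, 164 lost the call, 81 gained one and 0 changed sign with a call; 132 of the losses and 24 of the gains came from leaving out 1 library. The counts of the 35 genes called moved by over 1.5 times as follows: Cdk19-/- against WT from 0 to 1 with DESeq2, 1 with no filter on low counts and 4 without both libraries at the WT level of Cdk19 (a setting chosen after seeing the data); the double knockout against Cdk8-/- from 0 to 2 with DESeq2; the departure from additivity from 0 to 2 without both libraries; the change of the Senexin B effect with time from 0 to 1 with no filter; and the DMSO times from 9 to 1 with only the libraries compared. Leaving out 1 library gave 11 to 17 for Cdk8-/- against WT, 0 to 4 for Cdk19-/- against WT, 20 to 24 for the double knockout against WT, 0 to 2 against Cdk8-/-, 24 to 27 against Cdk19-/-, 13 to 22 for Cdk8-/- against Cdk19-/-, 0 to 2 for the departure from additivity, 8 to 13 and 15 to 20 for Senexin B at 16 h and 24 h, 0 for its change with time, and 2 to 10 for the DMSO times. The cause was not tested. Leaving out 1 library also moved the calls over all genes, to 196 to 699 from 804 for Cdk8-/- against WT, to 1348 to 2452 from 2700 for the double knockout against WT, to 3 to 839 from 4 for the double knockout against Cdk8-/-, and to 657 to 1819 from 1198 and 2656 to 3805 from 4252 for Senexin B at 16 h and 24 h. Against Cdk19-/- they moved to 2399 to 4318 from 3953 for the double knockout and to 760 to 2813 from 2155 for Cdk8-/-. For Cdk19-/- against WT they moved to 0 to 521 from 0, and for the departure from additivity to 0 to 467 from 4. For the DMSO times they moved to 434 to 2296 from 1719. Over all genes the calls of edgeR, DESeq2 and edgeR with no filter were 804, 1294 and 1269 for Cdk8-/- against WT, 0, 309 and 479 for Cdk19-/- against WT, 4, 407 and 358 for the double knockout against Cdk8-/-, 4, 490 and 566 for the departure from additivity, and 0, 66 and 121 for the change of the Senexin B effect with time. Without both libraries at the WT level of Cdk19 these were 666 for Cdk19-/- against WT, 22 for the double knockout against Cdk8-/-, 728 for the departure from additivity, and 3258 for Cdk8-/- against Cdk19-/- (2155 with all libraries). With the replicate block all-gene calls rose from 1198 to 2293 for Senexin B at 16 h and from 0 to 60 for its change with time. For the DMSO times they rose from 1719 to 3281. The 35 genes kept 15 of 17 calls in Cdk8-/-, losing Phlda3 and Ddb2, and 21 of 22 between Cdk8-/- and Cdk19-/-, losing Xpc. Neither the labels nor the methods say what libraries of the same number share. Same-numbered libraries of the 2 DMSO times correlated at 0.366, -0.0503 and 0.284. The reason for the lost calls was not tested. The block changed no other call beyond those given in the report and 3 added between the DMSO times, Cdkn1a, Zmat3 and Apaf1. Depth limits Ak1, which had too few counts for a test in the Senexin B experiment.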
